A study of Mus musculus with 2 samples.

Results

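The 46 genes described here encode collagens, laminin chains and other proteins of the extracellular matrix, together with the enzymes that crosslink the matrix or cut it. They were chosen by symbol, as members of named matrix families, with earlier results of these data known. The shares of all genes given beside their counts are therefore descriptive and no test of the list. The symbols were matched to Ensembl identifiers in the deposited table of gene counts of mouse foetal gonadal somatic cells. All 46 were found among its 42422 genes, and all 46 were among the 15125 genes with enough counts to be tested. They fall into 9 lists by role. The 14 members of basement membranes (collagen IV and XVIII chains, laminins, nidogens and perlecan) are reported apart from the 32 members of the interstitial matrix, of which 5 are fibrillar collagen chains.

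The series measured gene expression in somatic cells of mouse gonads taken at embryonic day (E)12.5, after testis determination has begun. Embryos came from 129T2svJ males carrying the Oct4-eGFP transgene, which marks germ cells, mated with Swiss females. The gonads were pooled for each library, and somatic cells were collected as the GFP-negative fraction by flow sorting, so each library is a mixture of supporting, interstitial, endothelial and other cells in unknown proportions. Libraries held 3′ tags of messenger RNA counted by unique molecular identifier, so levels in CPM, a gene's count scaled to its library's total, compare libraries for 1 gene and do not rank genes. There were 10 groups of 4 libraries. Uncultured XX and XY gonads were sampled at E12.5. XX and XY gonads were also cultured with their mesonephros, which was removed afterwards, for 24 h or 72 h in the vehicle DMSO. XY gonads were further cultured for 24 h or 72 h with 500 nM BGJ398/Infigratinib, an inhibitor of fibroblast growth factor receptors (FGFRi), or with 500 nM PD0325901/Mirdametinib, an inhibitor of the kinases MEK1/2 (MEKi). No XX gonad received an inhibitor.

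Interstitial matrix is built around fibrils of collagens I, III and V, with collagen VI filaments, elastic fibres and proteoglycans between and on them, and it is secreted mainly by mesenchymal cells. Basement membranes are thin sheets under epithelia and around vessels, in which networks of laminin and collagen IV are tied together by nidogen and perlecan. In the foetal testis a basement membrane surrounds each cord, between the Sertoli cells inside and the peritubular cells outside. The authors told the sexes apart at E12.5 by whether testis cords were visible in the gonad.

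Library totals ran from 1380707 to 4836550 counts, with a median of 2248854, and between 18441 and 23096 genes had a count. The uncultured, the 24 h DMSO and the 24 h MEKi libraries were prepared in set 3, and the 24 h FGFRi and all 72 h libraries in set 4. Time against DMSO between 24 h and 72 h, and FGFRi against DMSO at 24 h, therefore cannot be told apart from set. Marker genes of the expected cell types were present, with Sertoli cell markers (10 genes) summing to 2070.0 to 2389 CPM in uncultured XY libraries and 127.8 to 260.5 CPM in XX, and pre-granulosa cell markers (8 genes) to 273.4 to 320.3 and 1935 to 2254 CPM. Markers of the mesonephros or ducts (6 genes) summed to between 205.8 and 373.5 CPM in XX libraries and between 61.84 and 134.1 CPM in untreated XY libraries, and germ cell markers (6 genes) to between 7.452 and 424.4 CPM over all 40 libraries. FGFRi library M5 at 72 h stood apart from its group, with the highest Sertoli cell and the lowest interstitial cell marker sum of the 4.

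The members together took 0.867 ± 0.047% of all counts in uncultured XY cells (mean ± SD, n = 4) and 0.472 ± 0.045% in XX cells. The share was 1.217 ± 0.085% and 0.684 ± 0.04% after 24 h in DMSO, and 1.587 ± 0.085% and 0.985 ± 0.1% after 72 h. It was higher in XY than in XX at each time and higher at each later time in both sexes, with no overlap between the sexes at any time or between times within a sex. The heat map of member levels shows which genes make up this pattern.

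**Figure D1:**
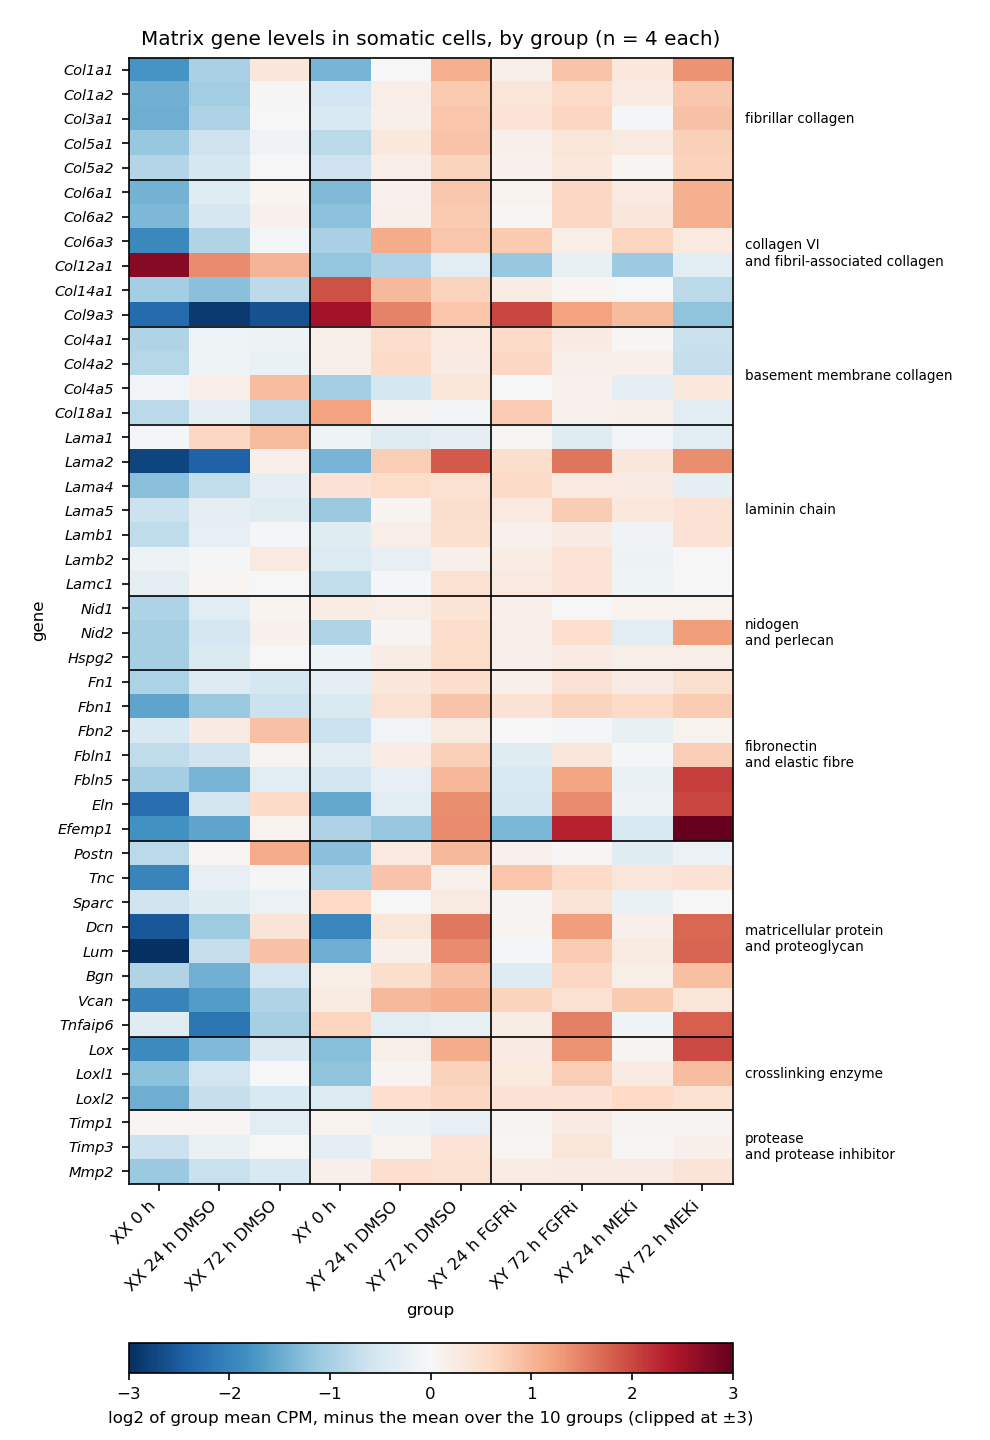
Level of each of the 46 members (rows, in 9 lists by role) in the 10 groups (columns), as the log2 of the group's mean CPM minus the mean of these over the 10 groups, with colour limited to 3 log2 units either way. Most interstitial members are lowest in uncultured XX cells and highest in XY cells at 72 h, while Col12a1 is highest in uncultured XX cells.

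XX and XY gonads were compared before culture and after 24 h and 72 h in DMSO to show how matrix gene expression differs between ovary and testis. Before culture 22 members were lower and 2 higher in XX cells, at a false discovery rate (FDR) below 0.05 and a change of at least 1.5-fold, where 9.32% of all tested genes were lower and 8.01% higher. At 24 h 28 were lower and 3 higher (all genes 10.3% and 9.24%), and at 72 h 27 were lower and 3 higher (10.8% and 9.47%). The median log2 difference of the members, XX minus XY, was -0.69, -0.71 and -0.70 at these times, and that of all tested genes was between -0.011 and -0.009. The XX and XY libraries did not overlap for 26, 34 and 37 members, which compares with 22.8%, 25.4% and 27.0% of all genes. In bulk samples, fewer cells of a type and less RNA per cell cannot be told apart, and markers of interstitial cells (7 tested of 8) moved with these results. They summed to 621.6 to 763 CPM in uncultured XX and 1234 to 1480.0 CPM in XY libraries, 544 to 684.7 and 1606 to 1989 CPM at 24 h, and 756.6 to 975.3 and 1930.0 to 2308 CPM at 72 h, with 6, 7 and 7 of 7 lower in XX. Their part in the results was not tested.

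The fibrillar collagens form the tension-bearing fibrils, and 2 of 5 were lower in XX before culture and all 5 at 24 h and at 72 h. Col1a2, a chain of collagen I, had 552, 594, 546 and 551 CPM in the uncultured XX libraries and 1125, 867, 914 and 1178 CPM in XY. After 72 h it had 1466, 1575, 1278 and 1915 CPM in XX and 2195, 3064, 2810.0 and 2447 CPM in XY. The sexes did not overlap at either time, although the level was higher in both at 72 h, and the log2 difference was -0.86 ± 0.14 (SE, FDR = 1.45e-06) before culture and -0.75 ± 0.14 (SE, FDR = 1.29e-05) at 72 h. Col1a1, the other collagen I chain, had 311, 318, 349 and 233 CPM in XX and 569, 759.6, 538 and 516 CPM in XY at 24 h. Every XX library lay below every XY library, with a log2 difference of -0.98 ± 0.13 (SE, FDR = 9.68e-09). Col3a1, the collagen III chain, was lower in XX at all 3 times, with log2 differences of -1.01, -1.06 and -0.85 (FDR = 1.48e-10, 1.20e-11 and 6.56e-09).

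The collagens that decorate fibrils showed the 3 largest sex differences of all members before culture, in both directions. Col9a3, a chain of collagen IX that is best known from cartilage, had 27.8, 9.72, 12.4 and 7.16 CPM in uncultured XX libraries and 454, 412, 345 and 407 CPM in XY. The groups lay far apart, with a log2 difference of -4.82 ± 0.26 (SE, FDR = 2.62e-21), which was -4.29 at 24 h and -3.45 at 72 h. Col14a1, a fibril-associated collagen, had 35.5, 33.1, 45.7 and 43 CPM in XX and 315, 266, 333 and 273 CPM in XY, a log2 difference of -2.93 ± 0.16 (SE, FDR = 5.26e-21). Col12a1, a close relative of Col14a1, went the other way, with 149, 183, 189.8 and 199 CPM in uncultured XX libraries and 12.3, 7.40, 14.8 and 13.5 CPM in XY (described after its values were seen). It was the only member higher in XX at all 3 times, by log2 differences of 3.88 ± 0.18 (SE, FDR = 7.75e-24), 2.33 ± 0.17 (SE, FDR = 9.29e-17) and 1.35 ± 0.18 (SE, FDR = 1.08e-08). Col6a3, a chain of the beaded filaments of collagen VI, had 64.5, 44.8, 51.7 and 46.2 CPM in XX and 195, 266, 203 and 169.5 CPM in XY at 24 h. No library of either sex reached the other, and the log2 difference was -2.02 ± 0.16 (SE, FDR = 3.42e-15).

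Among proteoglycans, Vcan (versican, a large aggregating proteoglycan) was lower in XX at every time. It had 66.2, 69.3, 49.3 and 58.1 CPM in XX and 337, 493, 386 and 324 CPM in XY at 24 h. The lowest XY library was far above the highest XX library, and the log2 difference was -2.65 ± 0.17 (SE, FDR = 4.17e-19). Dcn (decorin, a small proteoglycan that binds collagen fibrils) had 309, 340.2, 438 and 445 CPM in XX and 814, 934, 868 and 848 CPM in XY at 72 h. The groups did not overlap, with log2 differences of -1.45 ± 0.12 (SE, FDR = 6.87e-15) at 24 h and -1.17 ± 0.11 (SE, FDR = 3.21e-12) at 72 h, while before culture the difference of -0.57 was not called (FDR = 0.00139). Bgn (biglycan), related to decorin, was lower in XX at each time, with log2 differences of -1.10, -1.97 and -1.45 (FDR = 2.22e-10, 2.80e-19 and 1.11e-14). The elastic fibre genes Fbn1 (fibrillin 1) and Fbln5 (fibulin 5) were lower in XX at 72 h, with log2 differences of -1.50 and -1.31 (FDR = 7.30e-11 and 2.51e-07), whereas Fbn2 (fibrillin 2) was higher, at 0.59 (FDR = 7.37e-05). Lox, the lysyl oxidase that crosslinks collagen and elastin, had 14.1, 21.3, 20.0 and 17.8 CPM in XX and 59.6, 69.6, 32.4 and 49 CPM in XY at 72 h. The groups were apart, with a log2 difference of -1.53 ± 0.24 (SE, FDR = 1.21e-06). Mmp2, a secreted gelatinase, had 127, 121, 115 and 128 CPM in XX and 294, 277, 327 and 294 CPM in XY before culture, a log2 difference of -1.28 ± 0.093 (SE, FDR = 1.23e-16), while Timp1 and Timp3, inhibitors of such proteases, were called at no time.

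Basement membrane members were less uniform. Of 14, 7 were lower and 1 higher in XX before culture, 5 and 2 at 24 h, and 4 and 1 at 72 h. Among all tested genes 9.32%, 10.3% and 10.8% were lower and 8.01%, 9.24% and 9.47% higher at these times. The counts of 1 or 2 higher members lie near these shares. Col4a1 and Col4a2, whose chains assemble into the most widespread form of collagen IV, were lower in XX before culture and at 24 h. Col4a1 had 251, 214, 255 and 283 CPM in uncultured XX and 521, 499.5, 540.2 and 552 CPM in XY libraries, and Col4a2 had 221, 184, 225 and 260.1 CPM and 405, 403, 489.5 and 473 CPM. Neither gene's groups overlapped, with log2 differences of -1.07 ± 0.12 (SE, FDR = 1.25e-10) and -0.99 ± 0.11 (SE, FDR = 1.12e-10). Their differences at 72 h, -0.46 and -0.44, were under 1.5-fold (FDR = 0.00145 and 0.000987). Col18a1, the source of endostatin, was lower in XX, with log2 differences of -2.02 ± 0.11 (SE, FDR = 3.46e-21) before culture and -0.71 ± 0.11 (SE, FDR = 7.17e-07) at 72 h. Sertoli cell markers, which mark cells on the cord side of the testis basement membrane, were lower in XX for 10, 8 and 9 of 10 genes at the 3 times, and their part in these differences was not tested.

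The laminin α chains differed between sexes in opposite directions, whereas the shared chains Lamb1, Lamb2 and Lamc1 were called at no time. Lama2, the α2 chain of mesenchymal and muscle basement membranes, had 3.15, 4.46, 4.35 and 2.77 CPM in XX and 22.1, 46.2, 30.3 and 32.7 CPM in XY at 24 h. The sexes were apart, with a log2 difference of -3.13 ± 0.24 (SE, FDR = 9.06e-16). Lama4, the α4 chain of vessel walls, had 25.6, 19, 12.4 and 30.1 CPM in XX and 71.8, 65.4, 67.9 and 73.9 CPM in XY before culture, a log2 difference of -1.62 ± 0.18 (SE, FDR = 1.36e-10). Lama1, the α1 chain of early epithelial basement membranes, was higher in XX, with 136, 102, 114 and 149.8 CPM in XX and 50.6, 61.6, 46.9 and 51.9 CPM in XY at 72 h. No libraries overlapped there, and the log2 difference was 1.25 ± 0.16 (SE, FDR = 8.44e-09), against 0.12 before culture (FDR = 0.684). Nid1 (nidogen 1) was lower in XX before culture, with a log2 difference of -1.15 ± 0.18 (SE, FDR = 6.12e-07), and Nid2 was called at no time, with differences of -0.06, -0.56 and -0.40. Endothelial markers (10 genes), which mark cells that lay down collagen IV and Lama4, were lower in XX for 6 genes before culture, 9 at 24 h and 1 at 72 h. Markers of the mesonephros or ducts, which are epithelial, were higher in XX for 3 of 4 tested genes at each time. The part of either in these differences was not tested.

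**Figure D2:**
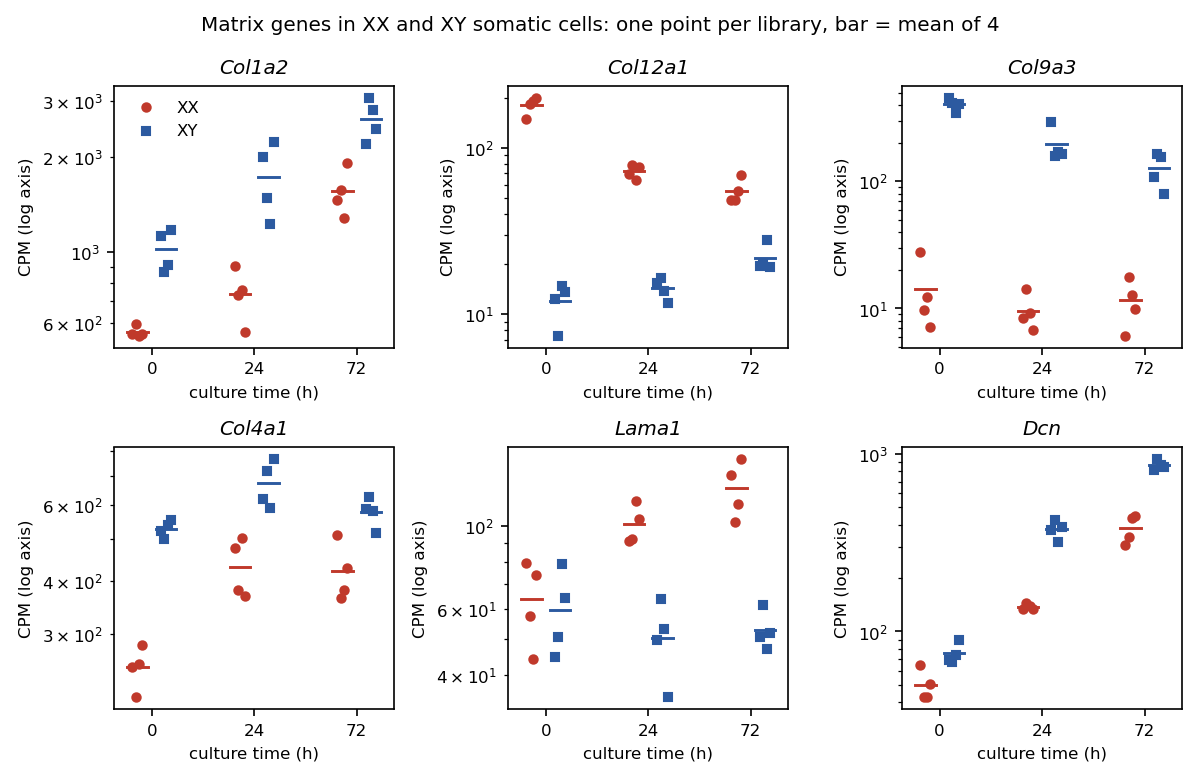
CPM of 6 members (log axis) in each library of XX and XY gonads before culture and after 24 h and 72 h in DMSO, with points for libraries and a bar at the mean of 4. Col1a2, Col9a3 and Dcn are lower in XX, Col12a1 is higher in XX but falls there with culture, Lama1 is higher in XX at 24 h and 72 h, and for Col4a1 the sexes are closest at 72 h.

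Culture for 24 h was compared with uncultured gonads, within library set 3, to show what the members do as the gonad develops in vitro. In XY cells 23 members rose and 4 fell, where 8.9% of all genes rose and 5.5% fell, and in XX cells 16 rose and 1 fell (all genes 5.46% and 2.27%). The member medians were 0.58 in XY and 0.49 in XX on the log2 scale. In both sexes 11 members rose (47.83% of the 23 and 68.75% of the 16), namely Col1a1, Col6a1, Col6a2, Col6a3, Eln, Postn, Tnc, Dcn, Lum, Loxl1 and Loxl2, and these comparisons have no library in common. Lum (lumican, a small proteoglycan of collagen fibrils) had 15.4, 27.9, 17.7 and 23.9 CPM in uncultured XY and 61.7, 70.8, 62.6 and 63.8 CPM in cultured XY libraries. In XX the values were 8.54, 4.42, 8.52 and 8.29 CPM and 39.9, 35.1, 36.3 and 32 CPM. Cultured and uncultured libraries were apart in both sexes, with log2 changes of 1.61 ± 0.20 (SE, FDR = 9.49e-09) and 2.27 ± 0.25 (SE, FDR = 1.24e-09). Dcn rose by 2.32 ± 0.13 (SE, FDR = 1.62e-20) in XY and by 1.44 ± 0.13 (SE, FDR = 3.86e-12) in XX. Eln (elastin) rose from 8.97, 10.2, 11.6 and 18.5 CPM to 40.3, 31.2, 52.2 and 42.3 CPM in XX, a log2 change of 1.70 ± 0.21 (SE, FDR = 2.05e-08).

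Among fibrillar collagens all 5 rose in XY and Col1a1 rose in XX, where the other 4 had log2 changes of 0.33 or more that were not called. Of the 14 basement membrane members, 4 rose and 1 fell in XY (Lama2, Lama5, Lamc1 and Nid2 up, Col18a1 down), and 4 rose in XX (Col4a1, Col4a2, Lama1 and Nid1). Among all tested genes 8.9% rose and 5.5% fell in XY, and 5.46% rose and 2.27% fell in XX. Nid2 (nidogen 2) went from 59, 44.4, 46.9 and 63.9 CPM to 107, 85, 97.7 and 136 CPM in XY, with no overlap and a log2 change of 0.98 ± 0.16 (SE, FDR = 6.85e-06). Nid1 in XX went from 71.8, 58.3, 89.9 and 82.5 CPM to 104, 119, 148 and 91.3 CPM, a log2 change of 0.62 ± 0.18 (SE, FDR = 0.0127). Loxl1, a lysyl oxidase relative needed for elastic fibres, went from 47.2, 45.5, 35.4 and 49.6 CPM to 124, 127, 94 and 92.2 CPM in XY, again without overlap, a log2 change of 1.30 ± 0.12 (SE, FDR = 6.66e-12). The members that fell in XY were Col18a1 (-1.12), Col9a3 (-1.04), Col14a1 (-0.92) and Sparc (-0.60), a matricellular glycoprotein. Sertoli cell markers fell over the same interval in 7 of 10 genes in XY, with sums of 2070.0 to 2389 CPM before and 1078 to 1645 CPM after. Markers of mesenchymal and surface cells were higher after culture. In XY the perivascular and smooth muscle sum (8 genes, 4 rose) was 150.2 to 207.8 CPM before and 472 to 516.3 CPM after, the coelomic epithelium sum (5 tested, 5 rose) 92.84 to 153 and 272.7 to 374.5 CPM, and the interstitial cell sum (7 tested, 3 rose) 1234 to 1480.0 and 1606 to 1989 CPM. In XX the perivascular sum was 136.5 to 179.4 and 295.7 to 352.7 CPM and the coelomic sum 193.7 to 249.8 and 419.1 to 537.2 CPM, with 3 genes that rose in each and 1 perivascular gene that fell, while the interstitial sums overlapped. The part of these markers was not tested.

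The sex difference itself was tested for change between uncultured and 24 h with an interaction term, and 13 members passed, with the XX minus XY difference going up for 4 and down for 9 (all genes 3.51% and 2.69%). The change was 1.63 ± 0.15 (SE, FDR = 5.01e-11) for Col18a1, -1.77 ± 0.47 (SE, FDR = 0.0122) for Lama2, -1.56 ± 0.26 (SE, FDR = 2.27e-05) for Col12a1 and -1.09 ± 0.26 (SE, FDR = 0.00359) for Col6a3 on the log2 scale. Col18a1 fell in XY from 740.1, 717, 708 and 748 CPM to 362, 337, 347 and 296 CPM. In XX it went from 179, 157, 177 and 204 CPM to 232, 255, 277 and 263 CPM, so that the sexes were closer at 24 h although still apart. Col12a1 fell in XX, from the values above to 69.4, 78.7, 63.8 and 76.3 CPM, while in XY it had 15.3, 16.4, 13.8 and 11.7 CPM at 24 h. Col6a3 and Lama2, which rose more in XY, changed the other way from 24 h to 72 h, by 1.13 ± 0.22 (SE, FDR = 0.00129) and 1.46 ± 0.32 (SE, FDR = 0.0038), and with Col12a1, at -0.97 ± 0.25 (SE, FDR = 0.0173), they were the 3 members called for that interval (all genes 1.17% up and 0.873% down). Without XX library F4 at 72 h, 5 members were called there, and edgeR's glmTreat and limma's voom with treat, which test against a 1.5-fold change itself, called 0, with 3 and 2 members at an unadjusted p below 0.05.

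**Figure D3:**
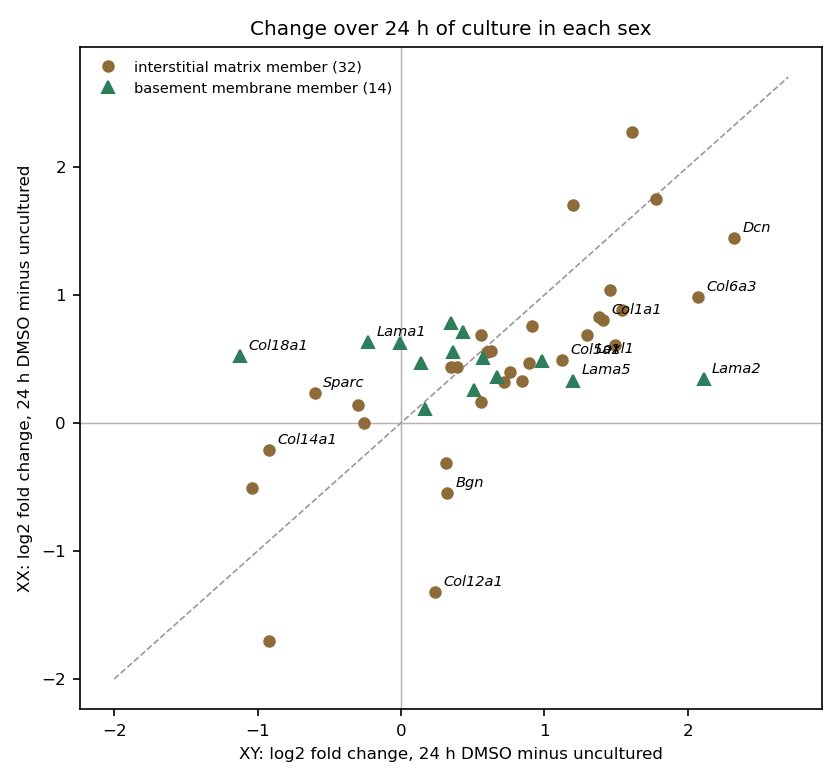
Log2 change of each member from uncultured to 24 h in DMSO, in XY (horizontal) and XX gonads (vertical), with circles for the 32 interstitial and triangles for the 14 basement membrane members and a dashed line where the changes are equal. Labelled members passed the test of the difference between sexes. Most points lie above 0 on both axes, and Col18a1 and Col12a1 lie far from the line on opposite sides.

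Between 24 h and 72 h in DMSO, which also differ in library set, 15 members rose and 2 fell in XY (all genes 4.24% and 3.03%), and 19 rose in XX with none lower by edgeR with 1 term per group or by DESeq2 (4.97% and 3.17%; 3 members were lower at an unadjusted p below 0.05). Of those that rose, 13 were shared between the sexes (86.67% of the 15 and 68.42% of the 19). FGFRi-treated XY gonads were sampled at both times within set 4, and their comparison was added after the data were seen. There 12 members rose and 3 fell (all genes 4.38% and 2.33%), and 9 rose both there and in XY DMSO (60.0% of the 15 and 75.0% of the 12), namely Col1a1, Col6a2, Lama2, Fbln5, Eln, Efemp1, Dcn, Lum and Lox. Eln had 37.8, 65.4, 47.1 and 40.8 CPM at 24 h and 177, 163, 151 and 148 CPM at 72 h in DMSO. With FGFRi it had 32.3, 41.1, 35.5 and 58.1 CPM and 158, 179, 138 and 171 CPM. Every 72 h library was above every 24 h library in both, and the log2 changes were 1.73 ± 0.15 (SE, FDR = 3.60e-12) and 1.94 ± 0.16 (SE, FDR = 6.90e-13). Efemp1 (fibulin 3) rose by 2.60 ± 0.32 (SE, FDR = 2.71e-08) in XY DMSO, by 1.74 ± 0.40 (SE, FDR = 0.00165) in XX DMSO and by 3.60 ± 0.35 (SE, FDR = 3.67e-11) with FGFRi. At 24 h it had only 3, 12, 14 and 14 counts in XY DMSO and 9, 6, 4 and 6 in XX DMSO. With FGFRi it had 6, 1, 5 and 10 counts at 24 h, so the sizes of these changes are imprecise. Col9a3 fell in both XY comparisons, with log2 changes of -0.64 ± 0.20 (SE, FDR = 0.0287) in DMSO, where the times overlapped, and -0.81 ± 0.20 (SE, FDR = 0.00431) with FGFRi. Endothelial markers fell over the same interval for 8 of 10 genes in XY DMSO, 249.6 to 386 CPM at 24 h and 89.47 to 167.6 CPM at 72 h, for 4 in XX and for 8 with FGFRi. Germ cell markers fell for 3 of 4 tested genes in XY DMSO, 97.19 to 141.5 and 14.28 to 32.31 CPM, and for 4 in XX. The perivascular sum went from 472 to 516.3 CPM to 540.1 to 665.3 CPM in XY DMSO, where 1 gene rose, and from 525.1 to 561.6 CPM to 727.1 to 1085 CPM with FGFRi, where 3 rose and 1 fell. The part of these markers was not tested.

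The authors inhibited FGF receptors or MEK1/2 to ask whether an FGF signal directs male germline development through this kinase pathway. Here the testis soma was compared between MEKi and DMSO. The 6 target genes of the pathway used as a check summed to 93.91 to 129.1 CPM with MEKi and 232.5 to 285.3 CPM with DMSO at 24 h, and to 79.12 to 95.15 and 246.9 to 289.8 CPM at 72 h, with 5 and 6 of 6 lower. At 24 h 1 member fell and none rose, where 1.98% of all genes fell and 1.29% rose. This was Col14a1, with 86.6, 61.8, 72.3 and 93 CPM in MEKi and 168, 188, 146 and 123 CPM in DMSO. The groups did not overlap, and the log2 difference was -0.99 ± 0.15 (SE, FDR = 4.58e-06). No member was higher by edgeR or DESeq2, and 1 was higher and 14 lower at an unadjusted p below 0.05. No basement membrane member was called by either tool, with 6 lower at an unadjusted p below 0.05, among them Col4a1 (-0.48, FDR = 0.00531) and Col4a2 (-0.42, FDR = 0.00907), which missed the 1.5-fold limit. Without MEKi library M4, 2 members were called. Endothelial markers were lower at the same time for 10 of 10 genes, 61.54 to 83.69 CPM against 249.6 to 386 CPM, and germ cell markers for 3 of 4 tested were higher, 226.1 to 424.4 CPM against 97.19 to 141.5 CPM. Their part was not tested.

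After 72 h of MEKi 6 members rose and 7 fell (2.29% of all genes rose and 4.19% fell), and 21 members did not overlap between MEKi and DMSO, against 17.2% of all genes. Among basement membrane members 3 of 14 fell and 1 rose. Col4a1 had 284, 320.2, 296 and 282 CPM in MEKi and 588, 628, 582 and 516 CPM in DMSO. Col4a2 had 257, 206, 266 and 248 CPM and 484, 502, 457 and 442 CPM. The highest MEKi library was well below the lowest DMSO library for both, and the log2 differences were -0.97 ± 0.12 (SE, FDR = 2.77e-08) and -0.95 ± 0.11 (SE, FDR = 5.75e-09). Lama4 fell from 79, 78.5, 69.8 and 57.1 CPM to 37, 40.1, 44.6 and 49.1 CPM, without overlap, a log2 difference of -0.74 ± 0.16 (SE, FDR = 0.00143). Nid2 went against these, with 231, 201, 305 and 221 CPM in MEKi and 147, 169.5, 139 and 123 CPM in DMSO, all MEKi libraries higher and a log2 difference of 0.73 ± 0.15 (SE, FDR = 0.0006). Lama1, Lama2 and Nid1 had differences of -0.04, -0.44 and -0.31 (FDR = 0.912, 0.0782 and 0.217), and Col18a1 and Hspg2 (perlecan) of -0.25 and -0.34 (FDR = 0.119 and 0.0709). Endothelial markers were lower for 8 of 10 genes, 47.45 to 67.3 CPM in MEKi and 89.47 to 167.6 CPM in DMSO, and Sertoli cell markers for 5 of 10, 611.4 to 934.1 and 867.6 to 1524 CPM, and their part was not tested.

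Col4a1 (ENSMUSG00000031502.11, chr8:11248423-11362826, minus strand) and Col4a2 (ENSMUSG00000031503.13, chr8:11362471-11499287, plus strand) lie head to head in the GRCm39 annotation, where the gene spans overlap by 356 bases. Their RefSeq transcripts in the GRCm38.p6 build begin 21 bases apart on opposite strands. The canonical starts in the GRCm39 annotation are 11362826 for Col4a1 and 11362509 for Col4a2. Whether this arrangement bears on the levels of the 2 genes was not tested. The RefSeq stretch from start to start, chr8:11312805-11312826, lies within both transcripts. It is printed from the plus strand, with the first base of each transcript in capitals.
Col4a2 start to Col4a1 start: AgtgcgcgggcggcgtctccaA

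No fibrillar collagen was called after 72 h of MEKi by edgeR or DESeq2, and 0 of 5 had an unadjusted p below 0.05, with log2 differences between -0.13 and 0.25. Col1a1 had 1668, 1479, 1254 and 1614 CPM in MEKi and 1179, 1297, 1313 and 1279 CPM in DMSO, and Col1a2 had 2939, 2373, 2391 and 2855 CPM and 2195, 3064, 2810.0 and 2447 CPM. The groups overlapped for both, with differences of 0.25 ± 0.12 (SE, FDR = 0.193) and 0.01 ± 0.13 (SE, FDR = 0.984). The fibril-associated chains Col9a3 and Col14a1 fell. Col9a3 had 25.6, 32.5, 35.2 and 29.7 CPM in MEKi and 109, 165, 155 and 79 CPM in DMSO, and Col14a1 had 54, 41.6, 37.7 and 47.5 CPM and 131, 139, 132 and 104 CPM. Neither overlapped, and the log2 differences were -2.02 ± 0.24 (SE, FDR = 1.11e-08) and -1.50 ± 0.16 (SE, FDR = 1.36e-09). Col6a3 was lower by less than 1.5-fold (-0.53, FDR = 0.0176). Vcan fell from 443, 459, 319 and 413 CPM to 226, 295, 212 and 266 CPM, without overlap, a log2 difference of -0.71 ± 0.15 (SE, FDR = 0.0012). Postn (periostin, a matricellular protein that binds collagen) fell from 61.3, 85.5, 86.8 and 44.7 CPM to 45, 37.1, 26.7 and 16.2 CPM, with 1 MEKi library inside the DMSO range and a log2 difference of -1.14 ± 0.24 (SE, FDR = 0.00105).

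The members that rose with MEKi at 72 h were Nid2, the elastic fibre genes Efemp1, Fbln5 and Eln, Lox and Tnfaip6. Efemp1, a fibulin of elastic tissue (ENSMUSG00000020467.15, chr11:28803150-28876825 in GRCm39), had 54.5, 68.8, 85.7 and 82 CPM in MEKi and 24, 18.9, 12.5 and 16.7 CPM in DMSO. Fbln5, which helps to place elastin on microfibrils, had 59.2, 55.8, 85.4 and 77.7 CPM and 28, 37.8, 33.9 and 31.9 CPM. Eln had 244, 227, 225 and 271 CPM and 177, 163, 151 and 148 CPM. All MEKi libraries were above all DMSO libraries for each of these, with log2 differences of 1.99 ± 0.25 (SE, FDR = 4.97e-08), 1.09 ± 0.17 (SE, FDR = 4.72e-06) and 0.60 ± 0.14 (SE, FDR = 0.00426). Lox rose from 59.6, 69.6, 32.4 and 49 CPM to 98.1, 84.5, 85.7 and 120.2 CPM, without overlap, a log2 difference of 0.87 ± 0.21 (SE, FDR = 0.00375). Fn1, Fbn1, Fbn2 and Fbln1, the other members of that list, had log2 differences between -0.18 and 0.02. Tnfaip6 (TSG-6, a hyaluronan-binding protein) rose from 4.00, 0.50, 6.48 and 0.95 CPM to 7.58, 14.9, 16 and 9.71 CPM, also without overlap, a log2 difference of 1.99 ± 0.46 (SE, FDR = 0.0027) on at most 51 counts in any library. Timp1, an inhibitor of metalloproteases, had 72, 69.2, 65.6 and 85.7 CPM in MEKi and 53.6, 50.7, 75.3 and 51.9 CPM in DMSO, with 1 DMSO library inside the MEKi range. Lum, Dcn, Loxl1, Timp1 and Mmp2 were not called, with differences of 0.33, 0.15, 0.23, 0.33 and -0.08 (FDR = 0.163, 0.393, 0.166, 0.157 and 0.616). Perivascular and smooth muscle markers (8 genes) summed to 995.1 to 1142 CPM in MEKi and 540.1 to 665.3 CPM in DMSO, with 2 genes higher and 2 lower, and coelomic epithelium markers to 436.7 to 470.6 and 246.2 to 324.1 CPM, with 3 of 5 tested higher. Their part was not tested.

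The MEKi effect differed between 24 h and 72 h for 3 members by the interaction test (0.555% of all genes higher and 0.853% lower at 72 h). The change was 1.13 ± 0.22 (SE, FDR = 0.00171) for Nid2, whose difference was -0.40 at 24 h and 0.73 at 72 h. It was 1.01 ± 0.26 (SE, FDR = 0.032) for Fbln5 and -1.49 ± 0.31 (SE, FDR = 0.00424) for Col9a3. At 24 h Nid2 had 74.8, 68.4, 83.9 and 92.1 CPM in MEKi and 107, 85, 97.7 and 136 CPM in DMSO, so MEKi libraries were mostly the lower ones then and the higher ones at 72 h.

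Promoter windows of RefSeq (GRCm38.p6, 250 bases before to 50 after the transcript start) were at hand for 28 of the 46 members, and were searched on both strands for the AP-1 motif TGANTCA, the ETS motif CCGGAA, the GC box GGGCGG, the CCAAT box and the TATA box with the letters TATAAA. AP-1 and ETS proteins are textbook nuclear targets of the MEK pathway. Some genes have more than 1 window, so the 28 members have 34. TGANTCA was in 3 of the 34 member windows (8.82%), those of Col6a1, Efemp1 and Tnfaip6, and in 7.81% of all 32851 windows. CCGGAA was in that of Nid1 only (2.94%, all windows 14.9%). GGGCGG was in 24 member windows (70.6%, all windows 35.7%), the CCAAT box in 12 (35.3%, all 37.4%) and the TATA box in 4 (11.8%, all 13.6%). Since Efemp1 and Tnfaip6 were the members with the largest rise under MEKi, their 250 bases before the start are shown on the plus strand, chr11:28852955-28853204 and chr2:52037863-52038112, with the TGANTCA match in capitals. It begins 154 bases before the start in Efemp1 and 142 in Tnfaip6, and a match is not a measured binding site. Col6a1, which also has a match, was not called with MEKi. Fbln5, which rose with MEKi at 72 h, has windows without a match, and Nid2, Eln and Lox have no window. Whether the motif bears on any of these changes was not tested.
Efemp1: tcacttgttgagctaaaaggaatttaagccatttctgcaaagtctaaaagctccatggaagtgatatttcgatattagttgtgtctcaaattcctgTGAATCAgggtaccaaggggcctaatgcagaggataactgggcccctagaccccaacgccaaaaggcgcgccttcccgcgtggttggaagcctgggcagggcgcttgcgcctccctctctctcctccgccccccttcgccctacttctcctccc
Tnfaip6: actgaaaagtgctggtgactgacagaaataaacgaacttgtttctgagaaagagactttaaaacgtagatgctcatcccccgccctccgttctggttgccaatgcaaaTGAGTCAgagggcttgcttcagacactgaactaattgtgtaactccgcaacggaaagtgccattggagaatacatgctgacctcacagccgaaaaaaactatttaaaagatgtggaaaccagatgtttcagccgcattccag

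**Figure D4:**
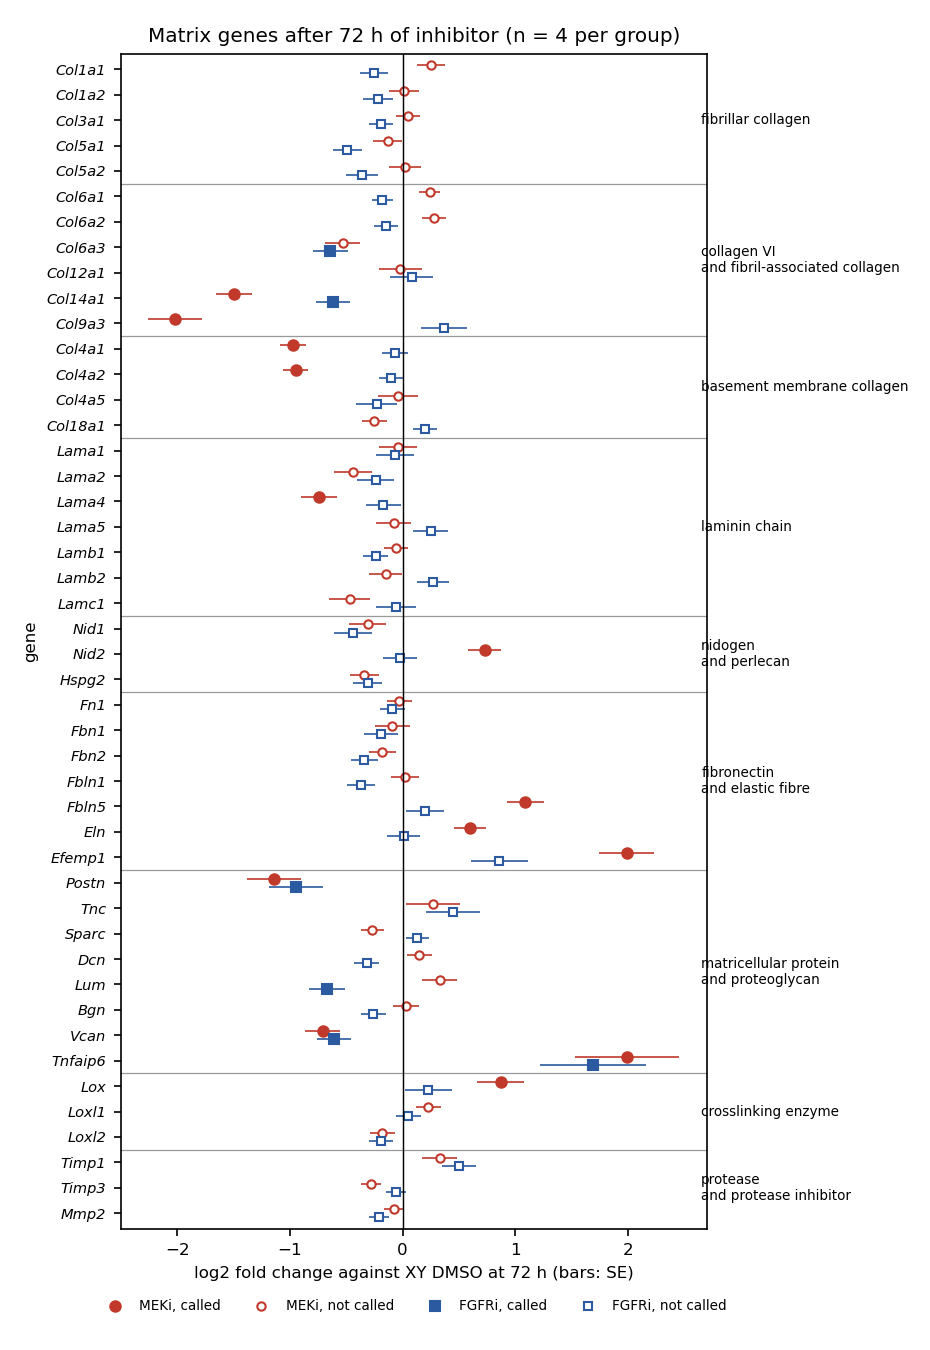
Log2 difference from XY DMSO at 72 h with its SE for the 46 members, for MEKi and for FGFRi, both at 500 nM and both against the same 4 DMSO libraries, filled where the difference was called. MEKi has 13 filled points and FGFRi 6, and with FGFRi the only filled point above 0 is Tnfaip6.

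FGF receptors, which signal through MEK1/2 among other routes, were inhibited for the same question, and FGFRi was compared with DMSO and with MEKi. At 72 h the 6 target genes of the pathway summed to 207.3 to 232 CPM with FGFRi. With DMSO they summed to 246.9 to 289.8 CPM, and with MEKi to 79.12 to 95.15 CPM. After 72 h of FGFRi 1 member rose and 5 fell, where 0.866% of all genes rose and 0.939% fell, and 11 members did not overlap between FGFRi and DMSO, against 7.4% of all genes. These calls rested on single libraries. Without FGFRi library M5, which stood apart, 0 members were called by edgeR, with 3 higher and 8 lower at an unadjusted p below 0.05, and 0.587% of all genes were called. Without FGFRi M6, DMSO M2 or DMSO M4, 1 member was called in each case, beside 1.09%, 0.77% and 1.42% of all genes. Lum had 110.0, 89.5, 82 and 114 CPM in FGFRi and 171, 175, 144 and 135 CPM in DMSO, with no overlap and a log2 difference of -0.67 ± 0.16 (SE, FDR = 0.0143), which was -0.58 (FDR = 0.117) without M5. Col6a3 had 126, 137, 76.6 and 103 CPM and 197, 175, 144 and 169.9 CPM, also apart, with -0.64 ± 0.16 (SE, FDR = 0.0139), or -0.50 (FDR = 0.155) without M5. Col14a1 had 92.7, 89.5, 74.5 and 72.5 CPM in FGFRi, all below DMSO, with -0.62 ± 0.15 (SE, FDR = 0.0143), or -0.58 (FDR = 0.0916) without M5. Postn and Vcan overlapped with DMSO, with -0.95 ± 0.24 (SE, FDR = 0.0192) and -0.61 ± 0.15 (SE, FDR = 0.0172), or -0.92 and -0.43 (FDR = 0.0924 and 0.203) without M5. Tnfaip6 had 9.21, 8.91, 10.4 and 10.9 CPM in FGFRi, all above DMSO, with 1.69 ± 0.47 (SE, FDR = 0.0364), or 1.66 (FDR = 0.129) without M5.

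No basement membrane member was called with FGFRi at 72 h by edgeR or DESeq2, and 0 of 14 were higher and 3 lower at an unadjusted p below 0.05, with log2 differences between -0.44 and 0.27. Col4a1 had 657, 646, 432 and 478 CPM and Col4a2 had 446, 516, 386 and 414 CPM in FGFRi, which overlapped with the DMSO libraries, with differences of -0.07 ± 0.11 (SE, FDR = 0.864) and -0.10 ± 0.11 (SE, FDR = 0.747). No fibrillar collagen was called by either tool, with 3 of 5 lower at an unadjusted p below 0.05 and differences between -0.49 and -0.19. Efemp1 had 33.4, 36, 33.3 and 29.8 CPM in FGFRi, all above DMSO, and its difference of 0.86 ± 0.25 (SE, FDR = 0.0534) by edgeR was not called. It was called by DESeq2 (FDR = 0.0251), and by edgeR with RLE scaling (0.0497), with no filter (0.0132) and with only the groups compared (0.0238). It was not called by edgeR with total counts (FDR = 0.0665), a CPM filter (0.0517) or a replicate block (0.071). Neither glmTreat nor voom with treat called it. In M5 the interstitial cell markers summed to 1055 CPM and the Sertoli cell markers to 2613 CPM, the group's extremes, against 1930.0 to 2308 and 867.6 to 1524 CPM in DMSO, and their part was not tested. Perivascular markers summed to 727.1 to 1085 CPM in FGFRi, with 3 higher and 2 lower.

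MEKi and FGFRi gonads were compared with each other at 72 h, at the same dose, where 5 members were higher and 4 lower with MEKi (all genes 1.74% and 4.69%). Col9a3, Col4a1, Col14a1 and Col4a2 were lower with MEKi, with log2 differences of -2.39 ± 0.23 (SE, FDR = 1.34e-10), -0.90 ± 0.12 (SE, FDR = 1.26e-07), -0.87 ± 0.16 (SE, FDR = 0.000139) and -0.85 ± 0.11 (SE, FDR = 7.85e-08). Efemp1, Lum, Fbln5, Nid2 and Lox were higher, at 1.14 ± 0.23 (SE, FDR = 0.000491), 1.00 ± 0.16 (SE, FDR = 1.05e-05), 0.89 ± 0.16 (SE, FDR = 9.30e-05), 0.75 ± 0.15 (SE, FDR = 0.00031) and 0.64 ± 0.21 (SE, FDR = 0.0342). None of the 9 overlapped between the inhibitors, and neither did 14.8% of all genes. Sertoli cell markers were lower with MEKi for 8 of 10 genes, 611.4 to 934.1 CPM against 1374 to 2613 CPM, and endothelial markers for 5 of 10, 47.45 to 67.3 against 81.02 to 145.4 CPM, with no overlap in either sum, and their part was not tested. Col14a1, Vcan, Postn and Tnfaip6 were called for both inhibitors against the shared DMSO libraries. Of these only Col14a1 was also called between the inhibitors, at the -0.87 above. Postn and Tnfaip6 had MEKi minus FGFRi differences of -0.19 ± 0.25 (SE, FDR = 0.703) and 0.31 ± 0.40 (SE, FDR = 0.699). At 24 h FGFRi and DMSO were of different sets, and 1 member was higher (Col18a1, 0.66) and 2 lower (Bgn, -0.91, and Col14a1, -0.75; all genes 1.69% and 1.59%), differences that cannot be told apart from set. Without DMSO library M2, 5 members were called there.

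**Figure D5:**
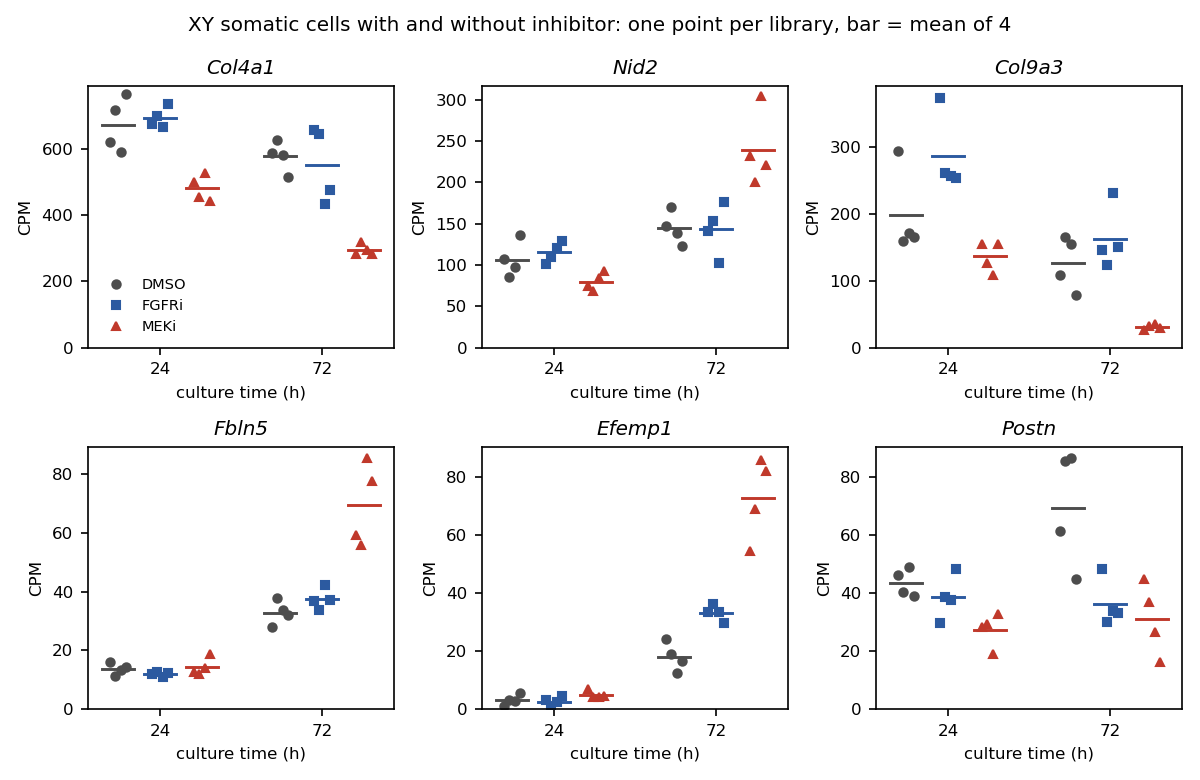
CPM (linear axis) of 6 members in each XY library after 24 h and 72 h with DMSO, FGFRi or MEKi, with points for libraries and a bar at the mean of 4. At 72 h the MEKi libraries lie below the others for Col4a1 and Col9a3 and above them for Nid2, Fbln5 and Efemp1, while Postn overlaps between groups.

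Other matrix genes were counted in 5 further lists, with examples chosen by size. Over all genes 8.01%, 9.24% and 9.47% were higher and 9.32%, 10.3% and 10.8% lower in XX before culture, at 24 h and at 72 h. With MEKi 1.98% fell at 24 h and 2.29% rose and 4.19% fell at 72 h, and with FGFRi 0.866% rose and 0.939% fell at 72 h. In the sex comparisons, counts of 1 or 2 genes in a list lie near these shares. Of 22 tested collagen-processing genes, 6 were lower in XX than in XY before culture, 5 at 24 h and 4 at 72 h, and 2 rose with MEKi at 72 h (P4ha2, 0.61, and Tgm2, 0.61). Of 22 matrix receptors, 3 were higher and 6 lower in XX before culture, 4 and 8 at 24 h and 6 and 6 at 72 h, with Itga4 at -3.73 and Cd44 at 2.29 at 24 h. The receptors fell with MEKi for 6 genes at 24 h and 7 at 72 h, led at 72 h by Itga2 (-2.73), Sdc3 (-1.54) and Itga6 (-1.39). Endothelial markers summed to 61.54 to 83.69 CPM with MEKi and 249.6 to 386 CPM with DMSO at 24 h. At 72 h these sums were 47.45 to 67.3 and 89.47 to 167.6 CPM. The part of these or other cell types in the counts of the 5 lists was not tested. Of 17 other basement membrane genes, 2 were higher and 9 lower in XX before culture, 1 and 9 at 24 h and 1 and 11 at 72 h, with Smoc2, Col4a4 and Col4a3 at -4.29, -3.50 and -2.90 at 24 h. With MEKi at 72 h 1 of these rose and 3 fell, with Col15a1 at -2.07, and with FGFRi 2 fell, with Frem1 at -0.87. Of 34 other interstitial matrix genes, 2 were higher and 13 lower in XX before culture, 5 and 19 at 24 h and 5 and 18 at 72 h, while 1 rose and 4 fell with each inhibitor at 72 h. Of 23 matrix turnover genes, 1 was higher and 5 lower in XX before culture, 4 and 9 at 24 h and 4 and 10 at 72 h, and 1 rose and 4 fell with MEKi at 72 h. The FGFRi calls in these lists were not examined without library M5 or under the alternatives. Over all genes, 0.587% were called with FGFRi at 72 h without M5. There glmTreat called 1 gene higher and 4 lower, and voom with treat called 0.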

How the data were processed

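Gonads were collected and cultured as described, GFP-negative somatic cells were sorted, and 3′ libraries with unique molecular identifiers were sequenced on 2 lanes. The authors aligned reads to GRCm39 with Rsubread, counted identifiers with scPipe and added the lanes, and deposited raw counts per gene. The authors' code set the counting to use strand, and the annotation release is not given in the sources used here. On the same strand 12 members overlap another annotated gene, 0 of them a protein-coding one, so their counts may share reads. Labels gave the groups, and 1 MEKi 24 h library (M2) absent from its pool's description was placed by the deposited list of library names (40 libraries, 0 labels differ). Where nothing states that replicates were separate cultures, p-values measure the spread between these libraries.

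Counts were tested in R 4.3.3 with edgeR 4.0.16, by a quasi-likelihood fit over all 40 libraries with 1 term per group, after filterByExpr and TMM scaling, with Benjamini-Hochberg adjustment over 15125 genes. A gene was called at FDR below 0.05 and at least 1.5-fold. The script was tested on simulated counts. DESeq2 1.42.0, glmTreat, limma 3.58.1 (voom with quality weights and treat), other scalings and filters, a replicate block, fits of only the groups compared and leaving out each library were alternatives. Values are CPM of the library total over tested genes times its TMM factor, listed in library order. Coordinates come from the GENCODE M39 annotation of GRCm39 and sequences from RefSeq (GRCm38.p6). Members, role lists, 5 further matrix lists, marker lists and tests were chosen with earlier results of these data known. Values per library are given for the members with most calls in each list (up to 3) and folds for at most 4 called members of a list per comparison, and others were named after their values were seen. Library totals of 1380707 to 4836550 counts limit the precision for low genes, such as Efemp1, Tnfaip6 and Lama2.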

Additional observations from a re-analysis of the deposited data

Results flagged for a closer look

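Of 220 groups of 4 libraries examined (22 named members in 10 groups), 12 held a library far from the other 3, where chance gives about 1 in 20. Higher than the rest were Col1a1 in MEKi 24 h library M2 (788.44 CPM, others 713.87 to 725.71), Col1a2 in uncultured XX F3 (593.78 CPM, others 546.16 to 551.79), Col9a3 in XY DMSO 24 h M2 (293.78 CPM, others 159.33 to 171.63) and in FGFRi 24 h M1 (373.3 CPM, others 252.61 to 260.78), Col6a3 in MEKi 72 h M4 (136.27 CPM, others 111.38 to 113.23), Mmp2 in MEKi 24 h M4 (333.29 CPM, others 310.44 to 314.18) and Timp1 in XY DMSO 72 h M5 (75.3 CPM, others 50.7 to 53.64). Lower than the rest were Col6a3 in XX DMSO 72 h F4 (61.43 CPM, others 98.96 to 105.73), Lama2 in MEKi 24 h M6 (18.69 CPM, others 26.38 to 27.39), Eln in MEKi 24 h M1 (39.12 CPM, others 58.45 to 60.63), Lum in uncultured XX F3 (4.42 CPM, others 8.29 to 8.54) and Loxl1 in MEKi 72 h M3 (175.79 CPM, others 198.97 to 201.43).

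The difference between groups itself passed the interaction test for 19 member and comparison pairs. For the change of the XX minus XY difference from uncultured to 24 h, the log2 values were positive for Col18a1 (1.63, FDR = 5.01e-11), Lama1 (0.86, FDR = 0.0104), Sparc (0.84, FDR = 4.4e-05) and Col14a1 (0.72, FDR = 0.0432). They were negative for Lama2 (-1.77, FDR = 0.0122), Col12a1 (-1.56, FDR = 2.27e-05), Col6a3 (-1.09, FDR = 0.00359), Dcn (-0.88, FDR = 0.000833), Lama5 (-0.87, FDR = 0.0268), Bgn (-0.87, FDR = 0.000477), Col5a1 (-0.63, FDR = 0.0386), Loxl1 (-0.61, FDR = 0.0259) and Col1a1 (-0.60, FDR = 0.0326). From 24 h to 72 h they were 1.46 for Lama2 (FDR = 0.0038), 1.13 for Col6a3 (FDR = 0.00129) and -0.97 for Col12a1 (FDR = 0.0173). The MEKi effect changed from 24 h to 72 h by 1.13 for Nid2 (FDR = 0.00171), 1.01 for Fbln5 (FDR = 0.032) and -1.49 for Col9a3 (FDR = 0.00424).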

How the results depend on the processing

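Of 231 called member and comparison pairs, 180 kept their call in every fit that left out 1 library, and 87 under every other alternative. Tests against a fold of 1.5 itself called fewer members. In the order XX against XY before culture, at 24 h and at 72 h, MEKi at 24 h and 72 h, FGFRi at 72 h, MEKi against FGFRi, XY and XX 24 h against uncultured, XY and XX 72 h against 24 h, FGFRi at 24 h, the sex difference over both intervals, the MEKi effect over time and FGFRi over time, the main counts were 24, 31, 30, 1, 13, 6, 9, 27, 17, 17, 19, 3, 13, 3, 3 and 15. From the second of these on, edgeR's glmTreat gave 20, 17, 0, 7, 0, 1, 17, 6, 7, 8, 0, 2, 0, 0 and 5. Voom with treat gave 15, 15, 16, 0, 5, 0, 1, 12, 5, 7, 5, 0, 1, 0, 0 and 5 over all 16. For FGFRi at 72 h, 3 members under glmTreat and 1 under voom had an unadjusted p below 0.05. Over fits without 1 library the counts ran from 22 to 25, 30 to 32, 28 to 32, 1 to 2, 12 to 13, 0 to 6, 8 to 11, 22 to 29, 15 to 24, 12 to 20, 16 to 22, 2 to 5, 9 to 14, 2 to 5, 2 to 4 and 13 to 15. The libraries that moved a count by over 1.5 times, beyond FGFRi at 72 h (FGFRi M5, 0; FGFRi M6, DMSO M2 and DMSO M4, 1 each), were MEKi M4 at 24 h (2), DMSO M2 for FGFRi at 24 h (5) and XX F4 at 72 h for the sex difference from 24 h to 72 h (5). With no filter MEKi at 24 h gave 2 members and the sex difference from 24 h to 72 h gave 7, and with only the groups compared MEKi at 24 h gave 2. Calls lost were 7 with DESeq2, 2 with RLE scaling, 9 with total counts, 6 with a CPM filter and 3 with no filter.

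Replicate numbers were not taken to pair the libraries, since over the 32 same-numbered pairs of the groups compared the deviations from the group means correlated between -0.156 and 0.116, with 2 pairs above 0.1, and in no comparison were all pairs above it. With a replicate block, XX 72 h against 24 h gave 9 members (8 higher and Col18a1 lower), the sex difference gave 7 for the first interval and 0 for the second, and 32 pairs lost their call. Col1a2 with MEKi at 72 h (0.01) was -0.03 with total counts, -0.01 with only the groups compared and between -0.07 and 0.09 in fits without 1 library, and Col4a1 with FGFRi at 72 h (-0.07) was between -0.15 and 0.04 in such fits, and 0.04 without FGFRi M5. None of these had been called. Under total counts the median change of all genes from uncultured to 24 h in XY moved from 0.030 to 0.163, and calls over all genes went from 1346 higher and 832 lower to 1900 and 547, with 27 members higher and 3 lower. The same scaling gave 176 higher and 321 lower genes for FGFRi at 24 h (main 255 and 240) and 414 and 484 for the sex difference from uncultured to 24 h (main 531 and 407). The causes were not tested.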

Other observations

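Matrix genes outside the member list were also counted over the first 24 h of culture, in which 8.9% of all genes rose and 5.5% fell in XY and 5.46% rose and 2.27% fell in XX. Of 17 other basement membrane genes 10 rose and 1 fell in XY and 2 rose and 1 fell in XX, and of 34 other interstitial matrix genes 13 rose and 4 fell in XY and 9 rose and 1 fell in XX. In XY, Aspn (asporin, a small proteoglycan) rose by 3.87 and Col15a1 by 1.64 on the log2 scale, while Col2a1, the main collagen of cartilage, was at -3.06 and Tinagl1 at -2.20. Of 22 collagen-processing genes 4 rose and 1 fell in XY and 2 rose in XX, with Tgm2, a transglutaminase, at 2.16 in XY, and of 22 matrix receptors 6 rose and 1 fell in XY and 4 rose in XX. Of 23 matrix turnover genes 8 rose and 4 fell in XY and 5 rose and 1 fell in XX. The part of cell types in these counts was not tested.

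Some members lie beside each other in the genome. In the GRCm39 annotation 16713 bases separate Col3a1 and Col5a2, 42834 separate Dcn and Lum, and 83890 separate Col6a2 and Col6a1. The neighbours Dcn and Lum had log2 differences of the same sign with each inhibitor at 72 h. These were -0.32 and -0.67 with FGFRi and 0.15 and 0.33 with MEKi, and the genes were not tested against each other. Only the Lum value with FGFRi was called, and it was not called without FGFRi library M5.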
